A study of Mus musculus with 6 samples.

Results

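Antiviral interferon-stimulated genes are the genes that a cell switches on, through the interferon receptor, to block viruses and to sense their nucleic acids. A set of 43 such genes, taken by symbol, was followed here in LPS-treated bone marrow stromal cells with and without Nlrp3. All 43 were found among the 55401 genes of the table, and all 43 were among the 12136 genes that were tested. They were ordered by role into the IFIT family, the OAS family, nucleic acid sensors and RNA-binding effectors, proteins that block viral entry, replication or release, ISG15 with ubiquitin ligases, the PARP family, and 10 other interferon-stimulated genes.

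The series profiled polyadenylated RNA of mesenchymal stromal cells (MSCs) grown out of femoral marrow of C57/B6J mice. WT cells exposed to LPS (lipopolysaccharide, the bacterial ligand of TLR4) at 3 µg/mL for 24 h formed the first group, with 3 libraries. Nlrp3 knockout cells exposed to the same LPS dose for the same time formed the second, also with 3 libraries. NLRP3 senses cell damage and builds the inflammasome that turns on caspase-1. No label gives the design of the knockout allele, the age of the mice or how many mice each library stands for, and a p-value here speaks only of the spread among these libraries, part or all of which may be technical. Replicate numbers are the days 1, 2 and 3 in the titles of both groups; a further label gives day 1 for every library, so whether equal numbers mark a shared day cannot be told from the labels. Unstimulated cultures were not analysed here, and the values are therefore levels under LPS and not inductions by it.

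In the canonical pathway, type I interferons bind the receptor made of IFNAR1 and IFNAR2, the kinases JAK1 and TYK2 phosphorylate STAT proteins, among them STAT2, and these join IRF9 into a complex that binds the interferon-stimulated response element (ISRE) in promoters. LPS feeds this pathway through TLR4, TRIF and IRF3, which induce interferon-β. Many of the target genes encode sensors and factors of the same pathway, among them IRF7, and so amplify it.

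The promoters of the set were searched for the letters GAAANNGAAA, the core of the ISRE (N, any base), or their reverse complement TTTCNNTTTC, counting overlapping matches. In RefSeq promoters of GRCm38.p6, from 250 bases before to 50 bases after the transcript start, 17 of the 34 genes of the set in the promoter table held a match (50%), against 3.99% of all 27025 genes in it and 3.88% of the 8710 tested genes in it. A match was held by 6 of 11 genes of the set that fell in the knockout, by 10 of 22 that did not pass the test and by Oas3, the only gene of the set that rose. A match describes letters and is not a measured binding site. Below, 200 bases of 6 promoters are given 5′ to 3′ along the gene, from 170 bases before to 30 bases after the start, with the matches in capitals. Trim30a, Ifi203 and Rsad2 are shown as the genes with a match that fell most, Ifitm3 and Bst2 as the most abundant genes with a match that did not pass the test, and Oas3, picked after its values were seen, as the gene that rose.
Trim30a, chr7:104465164-104465363, minus strand: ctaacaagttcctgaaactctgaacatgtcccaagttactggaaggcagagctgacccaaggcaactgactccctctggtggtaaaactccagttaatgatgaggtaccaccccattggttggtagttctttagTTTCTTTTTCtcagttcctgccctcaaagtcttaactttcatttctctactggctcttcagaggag
Ifi203, chr1:173942463-173942662, minus strand: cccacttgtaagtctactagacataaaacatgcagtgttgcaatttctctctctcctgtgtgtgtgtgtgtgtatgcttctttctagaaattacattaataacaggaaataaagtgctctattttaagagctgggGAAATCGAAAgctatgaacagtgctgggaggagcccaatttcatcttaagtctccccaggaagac
Rsad2, chr12:26456423-26456622, minus strand: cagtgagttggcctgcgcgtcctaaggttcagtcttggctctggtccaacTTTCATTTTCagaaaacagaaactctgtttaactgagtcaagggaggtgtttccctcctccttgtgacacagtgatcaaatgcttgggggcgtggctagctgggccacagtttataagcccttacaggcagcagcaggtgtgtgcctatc
Ifitm3, chr7:141010715-141010914, minus strand: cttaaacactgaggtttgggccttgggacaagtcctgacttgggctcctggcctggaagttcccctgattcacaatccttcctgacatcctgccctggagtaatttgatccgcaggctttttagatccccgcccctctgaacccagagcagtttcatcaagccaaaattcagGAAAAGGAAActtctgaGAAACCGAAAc
Bst2, chr8:71537443-71537642, minus strand: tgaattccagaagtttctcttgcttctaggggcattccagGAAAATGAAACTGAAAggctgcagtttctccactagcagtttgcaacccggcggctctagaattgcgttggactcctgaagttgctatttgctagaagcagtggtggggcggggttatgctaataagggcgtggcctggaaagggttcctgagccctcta
Oas3, chr5:120777630-120777829, minus strand: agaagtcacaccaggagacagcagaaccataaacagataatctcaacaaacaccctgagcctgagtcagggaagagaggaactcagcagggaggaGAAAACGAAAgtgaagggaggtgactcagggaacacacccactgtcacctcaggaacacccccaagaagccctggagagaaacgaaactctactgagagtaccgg
The first base of the match lay 36 bases before the start in Trim30a, 35 in Ifi203, 120 in Rsad2 and 75 in Oas3, whereas both matches of Ifitm3 lay just after it. A gene with several promoters counted as holding a match if any of them did. Ifi203 has another promoter, chr1:173942623-173942922, that held 0 matches. Its start is base 173942672, the end of the gene coordinates given below. The Ifi203 promoter shown is that of a start inside the gene. In Bst2 a pair of matches overlapped, beginning 130 and 124 bases before the start.

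Totals ran from 53.2 to 66.3 M estimated counts (M, 1e6) per library. Correlations of log2(FPKM + 1) over tested genes were 0.973 to 0.985 within a genotype and 0.943 to 0.952 between genotypes. Knockout replicate 3 deviated from the other 2 knockout libraries along transcript GC content, and counts are given further on with and without it. Levels are given as FPKM, fragments per kilobase of a transcript and per library size. The limma test on log2(FPKM + 1) covered every gene that reached an FPKM of 1 in 3 or more of the 6 libraries, so that log2 fold changes, knockout minus WT, understate the change of low genes; a gene was called at a Benjamini-Hochberg adjusted p below 0.05 over all tested genes. Nlrp3 (chr11:59541568-59566956) was at 2.76, 1.68 and 1.86 FPKM in the WT libraries and at 0 in each of the 3 knockout libraries (limma adjusted p = 0.000408). An exact two-sided permutation test gave p = 0.1, the smallest that 3 against 3 libraries allow.

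Of the 43 genes, 15 fell in the knockout (34.9%) where 9.2% of all tested genes fell, and 1 rose (2.33%) where 10.4% of all tested genes rose. The set was chosen with earlier results of these data known, so these shares are a description. The genes that fell were Ifit1, Ifit3, Ifit3b, Oasl1, Dhx58, Zc3hav1, Ifi203, Rsad2, Cmpk2, Mx1, Mx2, Trim30a, Dtx3l, Parp9 and Parp12, with log2 fold changes from -1.39 to -0.27 and adjusted p from 0.000202 to 0.0415 (limma). The median log2 fold change of the 43 genes was -0.31, against 0.005 over all tested genes, and 38 of the 43 had a negative value. In 24 of the 43 genes all 3 knockout values lay below all 3 WT values, as in 18% of tested genes, and in 2 they lay above, as in 18.8% of tested genes. Errors given with ± beside a log2 fold change are standard errors from the fit of 3 against 3 libraries. In bulk RNA, fewer cells that express a gene and less of its RNA per cell cannot be told apart.

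**Figure D1:**
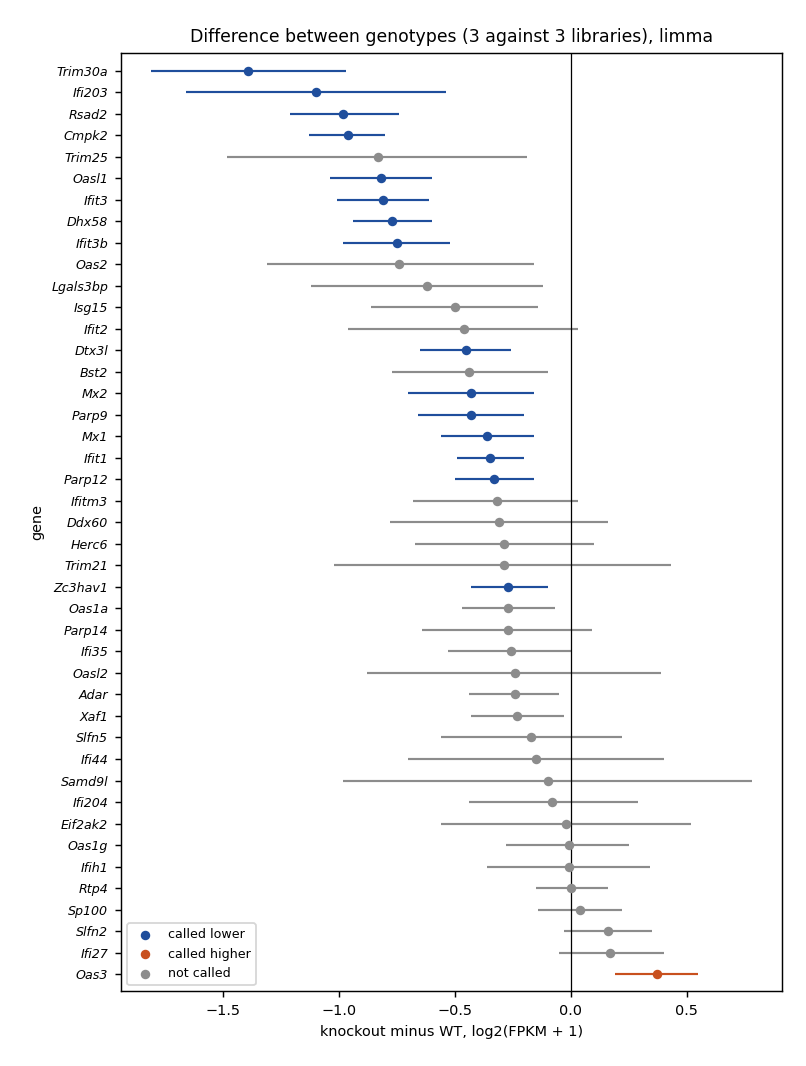
Log2 fold change of each of the 43 genes, knockout minus WT, on log2(FPKM + 1) with its 95% interval from limma (3 against 3 libraries). Blue points are the 15 genes called lower, the orange point is Oas3, called higher, and grey points are the 27 genes that did not pass the test, 23 of which lie below 0.

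The level of the set was carried by a few genes. Ifitm3 alone made up 48.8% of the summed FPKM of the 43 genes, and the 5 most abundant genes made up 82.6%. The sum was 4676, 4225 and 4927 FPKM in the WT libraries and 3521, 3139 and 3884 in the knockout libraries; without Ifitm3 it was 2402, 2238 and 2586 against 1804, 1588 and 1856. The groups did not overlap in either sum. Mean levels over the 6 libraries ran from 1.66 FPKM (Mx1) to 1983 FPKM (Ifitm3), with a median of 17.4.

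**Figure D2:**
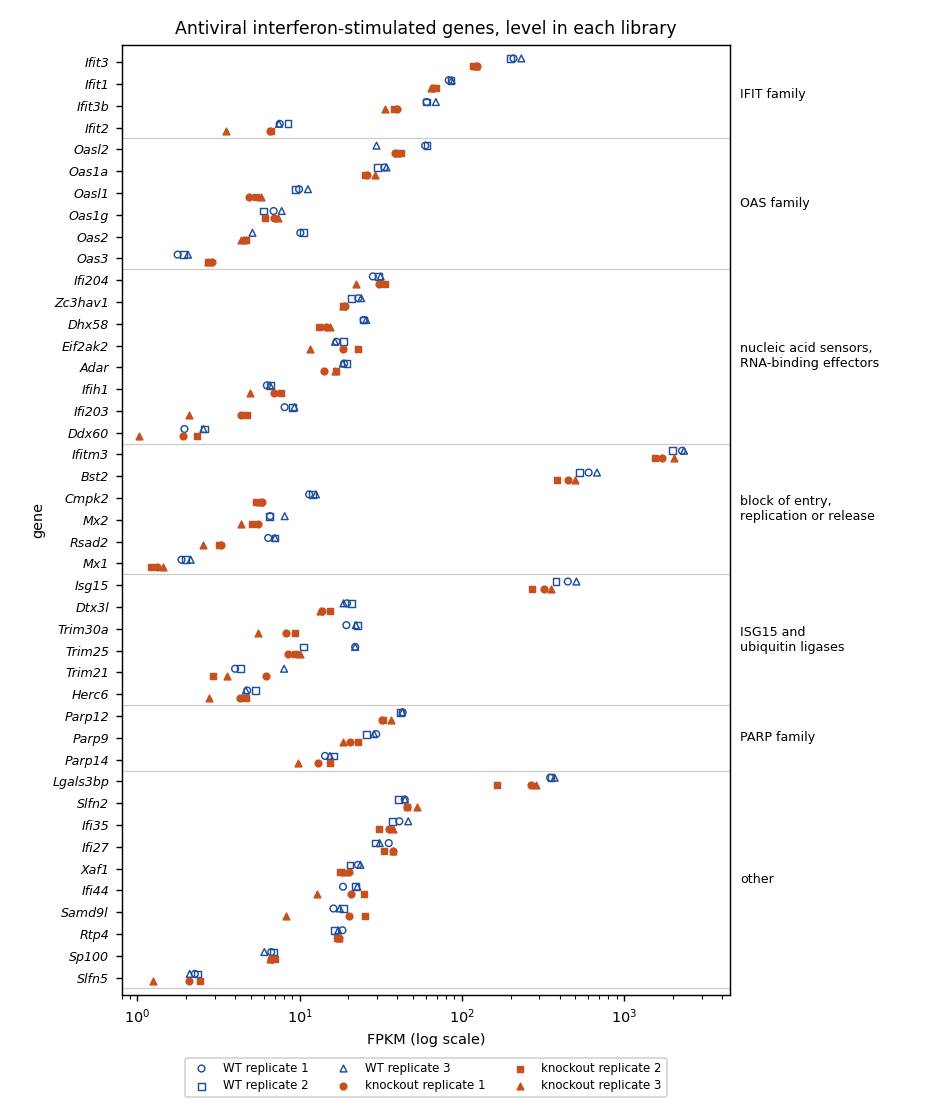
FPKM of each gene in each of the 6 libraries on a log scale, grouped by role and ordered by mean level within a role. Open blue symbols are WT libraries and filled orange symbols knockout libraries. Knockout replicate 3 (triangles) lies apart to the left in genes such as Samd9l, Ddx60, Ifit2 and Ifi44.

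The IFIT proteins bind viral RNA with foreign 5′ ends and block its translation. Of 4 tested, 3 fell, with a median log2 fold change of -0.61 over the family. Human IFIT3 stabilises the complex that IFIT1 forms on RNA. Mouse Ifit3 (chr19:34583531-34588731) was at 208.13, 198.81 and 232.48 FPKM in WT and at 123.65, 116.45 and 122.16 in the knockout. It was the fifth most abundant gene of the set, and its knockout level was 56.7% of WT (log2 fold change -0.81 ± 0.08 SE, limma adjusted p = 0.000852). Its neighbour and close copy Ifit3b (chr19:34607970-34613401) was at 60.63, 60.29 and 69.13 FPKM in WT and at 40.03, 38.37 and 33.47 in the knockout (-0.75 ± 0.09, limma adjusted p = 0.00204). In both genes every knockout library was below every WT library. They share sequence: 31.65% of the 100-base windows of the longest Ifit3 transcript occur in Ifit3b and 27.41% the other way round, so the split of fragments between them is uncertain. Ifit1, which binds uncapped or incompletely capped RNA, fell by less, with means of 85.0 ± 1.75 FPKM in WT and 66.6 ± 2.18 in the knockout (SD, n = 3; -0.35, limma adjusted p = 0.00846). Ifit2 did not pass the test (-0.46, 95% interval -0.96 to 0.03); its values were 7.54, 8.47 and 7.46 in WT and 6.57, 6.63 and 3.54 in the knockout.

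The OAS enzymes make 2′-5′-linked oligoadenylates on double-stranded RNA, which activate RNase L. The OAS-like protein OASL1 lacks that activity and acts in other ways. Of 6 tested in the OAS family, Oasl1 fell, Oas3 rose and 4 did not pass the test. That is 16.7% in each direction, beside the 9.2% and 10.4% of all tested genes that fell and rose. In 5 of the 6 the log2 fold change was negative. Oasl1 (chr5:114923240-114937915), known to inhibit translation of Irf7 mRNA, was at 9.92, 9.47 and 11.25 FPKM in WT and at 4.90, 5.38 and 5.75 in the knockout, 52.3% of the WT level (-0.82 ± 0.09, limma adjusted p = 0.00119). Oas3 (chr5:120753098-120777661), the large enzyme of the family, was at 1.77, 1.93 and 2.05 FPKM in WT and at 2.87, 2.71 and 2.72 in the knockout. The groups did not overlap in either gene. The increase of Oas3 was 0.37 ± 0.08 at a low level (limma adjusted p = 0.0172), and its call was lost without WT replicate 1 or 2, without knockout replicate 1 or with the title's day as a block.

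In Oas2 and Oasl2 a single WT library stood apart. Oas2 was at 10.10, 10.55 and 5.12 FPKM in WT and at 4.58, 4.65 and 4.38 in the knockout, so that WT replicate 3 lay near the knockout values (-0.74, 95% interval -1.31 to -0.16, limma adjusted p = 0.0831). Oasl2 was at 59.43, 61.04 and 29.77 FPKM in WT and at 38.76, 42.05 and 39.74 in the knockout, with the same WT library below all others (-0.24, 95% interval -0.88 to 0.39). Without WT replicate 3 both were called lower, with log2 fold changes of -1.03 for Oas2 and -0.57 for Oasl2. With all 6 libraries Oas2 was also called lower by edgeR and by DESeq2, and Oasl2 by neither. Oas1a and Oas1g share sequence with each other, 40.87% and 38.18% of their windows, and neither passed the test (-0.27, interval -0.47 to -0.07, and -0.01, interval -0.28 to 0.25); Oas1a was called lower with the day as a block, without knockout replicate 3 and with the GC trend removed.

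Nucleic acid sensors and RNA-binding effectors gave calls in 1 direction only. Of 8 tested, 3 fell (Dhx58, Zc3hav1 and Ifi203). Dhx58 (chr11:100694884-100704271), the helicase LGP2 that tunes the RNA sensors RIG-I and MDA5, was at 24.82, 24.81 and 25.74 FPKM in WT and at 14.44, 13.21 and 15.39 in the knockout. The replicates were close and the groups far apart (57.1% of WT, -0.77 ± 0.07, limma adjusted p = 0.000614). Ifih1, which encodes MDA5 itself, had means that hardly differed (-0.01, 95% interval -0.36 to 0.34). Zc3hav1, the zinc-finger protein ZAP that marks CpG-rich viral RNA for decay, went from 22.7 ± 1.52 to 18.6 ± 0.283 FPKM (SD, n = 3; -0.27, limma adjusted p = 0.0399), and this call was lost in 9 of 18 alternatives.

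Ifi203 (chr1:173920407-173942672), a PYHIN gene of the family that binds DNA, was at 8.08, 9.07 and 9.28 FPKM in WT and at 4.36, 4.76 and 2.09 in the knockout. Every knockout library was below every WT library, and knockout replicate 3 was the lowest by far (-1.10 ± 0.23, limma adjusted p = 0.0189). Without that replicate the decrease was -0.82 and still called; the call was lost without any 1 of the WT libraries (-1.15, -1.08 and -1.07). The neighbouring family gene Ifi204 did not pass the test (-0.08, 95% interval -0.44 to 0.29), and 16.84% of its windows occur in other genes, mostly Ifi211. Eif2ak2, the kinase PKR that halts translation on double-stranded RNA, was at 16.87, 18.56 and 16.52 FPKM in WT and at 18.55, 22.98 and 11.59 in the knockout, so that the groups overlapped (-0.02, 95% interval -0.56 to 0.52). Adar, which edits adenosines in double-stranded RNA, had all knockout values below all WT values but missed the threshold (-0.24, limma adjusted p = 0.0895). Ddx60 did not pass the test (-0.31, 95% interval -0.78 to 0.16). It was called lower with the GC trend removed, but not when the day was also a block.

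Among the 6 proteins that block viral entry, replication or release, 4 fell and the median log2 fold change was -0.43. Cmpk2 and Rsad2 are neighbours on chromosome 12. Cmpk2 (chr12:26469204-26479837), a mitochondrial nucleotide kinase, was at 11.45, 11.97 and 12.60 FPKM in WT and at 5.89, 5.42 and 5.69 in the knockout. That is 47.2% of the WT level (-0.96 ± 0.07, limma adjusted p = 0.000202, the lowest of the set). Rsad2 (chr12:26442746-26456452), or viperin, which makes a chain-terminating nucleotide, was at 6.40, 7.06 and 7.05 FPKM in WT and at 3.29, 3.17 and 2.53 in the knockout, 43.8% of WT (-0.98 ± 0.10, limma adjusted p = 0.000824). In this adjacent pair no knockout value came near a WT value.

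The Mx genes encode dynamin-like GTPases that trap viral nucleocapsids; most inbred laboratory strains carry a defective Mx1. Mx2 (chr16:97535308-97560900) was at 6.57, 6.53 and 8.09 FPKM in WT and at 5.53, 5.06 and 4.36 in the knockout (-0.43 ± 0.11, limma adjusted p = 0.0415). Mx1 (chr16:97447035-97462907) was at 1.87, 1.97 and 2.13 FPKM in WT and at 1.33, 1.22 and 1.44 in the knockout (-0.36 ± 0.08, limma adjusted p = 0.0246). The groups did not overlap in either gene, but the Mx2 call was lost with any 1 library left out, and the Mx1 call with any but knockout replicate 3 left out. Both calls were also lost with the day as a block and without the filter on low values.

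The most abundant genes of the set were Ifitm3 and Bst2, of this role, and Isg15, of the next, and none of them passed the test. Ifitm3 (chr7:141009586-141010770), a membrane protein that stops virus fusion in endosomes, was at 2274.03, 1986.91 and 2340.66 FPKM in WT and at 1716.45, 1550.69 and 2028.16 in the knockout. Knockout replicate 3 exceeded WT replicate 2, and the difference did not pass the test (-0.32, 95% interval -0.68 to 0.03, limma adjusted p = 0.199). Ifitm3 was called lower with the GC trend removed together with the day as a block, and by edgeR without knockout replicate 3. Bst2 (chr8:71534255-71537456), or tetherin, which holds budding virions at the cell surface, was at 604.38, 528.55 and 680.35 FPKM in WT and at 453.93, 385.77 and 501.21 in the knockout. Its groups did not overlap, yet it missed the threshold (-0.44, 95% interval -0.77 to -0.10, limma adjusted p = 0.0816). It was called lower by DESeq2, with the day as a block (also with the GC trend removed) and by edgeR without knockout replicate 3.

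ISG15 is a ubiquitin-like protein that is attached to other proteins and is also secreted. Isg15 (chr4:156199455-156200796) was at 449.70, 380.59 and 507.98 FPKM in WT and at 322.79, 268.72 and 353.21 in the knockout. All knockout values were below all WT values, and the test missed the threshold (-0.50, 95% interval -0.86 to -0.14, limma adjusted p = 0.0623); it was called lower without knockout replicate 3 (-0.59), with the day as a block, with the GC trend removed, by DESeq2 and by edgeR with RLE scaling but not with TMM scaling. Of the 6 genes in this role, Trim30a and Dtx3l fell. Trim30a (chr7:104409025-104465193), a TRIM protein known to restrain TLR signalling and the NLRP3 inflammasome in macrophages, was at 19.41, 22.77 and 22.21 FPKM in WT and at 8.24, 9.41 and 5.53 in the knockout. This was the largest decrease of the set, to 36.0% of the WT level (-1.39 ± 0.18, limma adjusted p = 0.00208), and it was -1.19 without knockout replicate 3. Of its windows 4.79% occur in Trim30d.

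Dtx3l (chr16:35926511-35939151), a ubiquitin ligase, forms a complex with PARP9, and their genes overlap head to head. Dtx3l was at 19.58, 20.91 and 18.65 FPKM in WT and at 13.74, 15.38 and 13.29 in the knockout (-0.45 ± 0.08, limma adjusted p = 0.00878). Parp9 (chr16:35938470-35972605) was at 29.64, 25.86 and 28.74 FPKM in WT and at 20.58, 22.93 and 18.44 in the knockout (-0.43 ± 0.10, limma adjusted p = 0.0244). Both partners were lower in every knockout library, at 71.7% and 73.5% of WT. The spans of the 2 genes share 682 bases on opposite strands, and whether the counting used strand is not given in the sources used here. The Parp9 call was lost without WT replicate 1 or 3, without knockout replicate 1 or with the day as a block.

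The PARP enzymes transfer ADP-ribose to proteins, and 2 of the 3 tested here fell. Besides Parp9, Parp12, known to restrict several RNA viruses, went from 42.7 ± 0.575 to 33.9 ± 2.53 FPKM (SD, n = 3; -0.33, limma adjusted p = 0.0207), a call that was lost when any library but knockout replicate 3 was left out. Parp14 did not pass the test (-0.27, 95% interval -0.64 to 0.09). Among the other ubiquitin ligases, Trim25, which acts on RIG-I, was at 22.00, 10.56 and 21.97 FPKM in WT and at 8.42, 9.38 and 10.06 in the knockout. WT replicate 2 alone lay near the knockout values (-0.83, 95% interval -1.48 to -0.19, limma adjusted p = 0.0816), and without it Trim25 was called lower at -1.16. With all 6 libraries edgeR and DESeq2 also called it lower. Trim21, an antibody receptor in the cytosol, and Herc6, the main mouse ligase for ISG15, did not pass the test, with intervals of -1.02 to 0.43 and -0.67 to 0.10. Herc6 was called lower with the GC trend removed, with or without the day as a block. Of its windows 20.89% occur in another gene model, Gm45193.

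The 10 other interferon-stimulated genes gave no call in either direction, with a median log2 fold change of -0.12; 2 of them had an unadjusted p under 0.05, and DESeq2 called 1 of them, Lgals3bp. Lgals3bp (chr11:118392751-118402092), a secreted glycoprotein that binds galectin-3, was at 350.18, 353.76 and 373.03 FPKM in WT and at 267.38, 165.03 and 288.21 in the knockout. Its groups did not overlap, but knockout replicate 2 lay far below the other 2 knockout libraries (-0.62, 95% interval -1.12 to -0.12, limma adjusted p = 0.092). It was called lower without knockout replicate 2 (-0.37) or without knockout replicate 3 (-0.77). Rtp4, a chaperone of G protein-coupled receptors, and Sp100, a nuclear body protein, had narrow intervals around 0, of -0.15 to 0.16 and -0.14 to 0.22. Samd9l, a restriction factor, had the widest of the set, -0.98 to 0.78. Ifi27 and the growth regulator Slfn2 had positive values of 0.17 and 0.16, with intervals of -0.05 to 0.40 and -0.03 to 0.35. Xaf1, Ifi35, Ifi44 and Slfn5 had negative values from -0.26 to -0.15. Ifi35 was called lower with the day as a block, and Xaf1 with the day as a block once the GC trend was removed.

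The 27 genes that did not pass the test are thus not shown to be unchanged: 7 had an adjusted p below 0.1, 8 had a 95% interval that excluded 0, and 7 had an interval wider than 1 on the log2 scale.

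With the title's day as a block, limma called 15 genes of the set lower, 11 of them among the 15 above, and 0 higher. The calls of Oas3 (adjusted p = 0.0565, and 0.00146 to 0.0809 over its 18 alternatives), Zc3hav1 (0.0627, and 0.0283 to 0.147), Mx1 (0.0539, and 0.0103 to 0.0983), Mx2 (0.106, and 0.0096 to 0.119) and Parp9 (0.065, and 0.00223 to 0.0978) were lost. Bst2 (adjusted p = 0.0174, and 0.0165 to 0.229 over its 18 alternatives), Isg15 (0.011, and 0.00829 to 0.182), Oas1a (0.0455, and 0.0302 to 0.205) and Ifi35 (0.043, and 0.043 to 0.395) were gained as lower.

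Knockout replicate 3 stood apart in part of the set. In this library 12 of the 43 genes lay at least 0.4 (log2) below the mean of the other 2 knockout libraries, from -1.35 in Samd9l to -0.49, while in each of the other libraries 0 to 2 genes of the set lay so far below their own group. Over all tested genes the share was 11.1% in knockout replicate 3 and 2.91% to 4.49% in the others. The 12 genes have transcripts of 38.8% to 48.9% GC. Ifi203 and Trim30a were the only ones of the 12 that were called lower. Across the 43 genes the deviation of this library rose with transcript GC content (Spearman's rho 0.79, Pearson's r 0.79; a description over genes that share the same library). Over 12128 tested genes with a known GC content rho was 0.51, and the median deviation went from -0.38 in the bin of genes with the lowest GC content (10 bins of equal size) to 0.15 in the bin with the highest. The set has a median GC content of 48.4%, against 50.8% over tested genes.

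**Figure D3:**
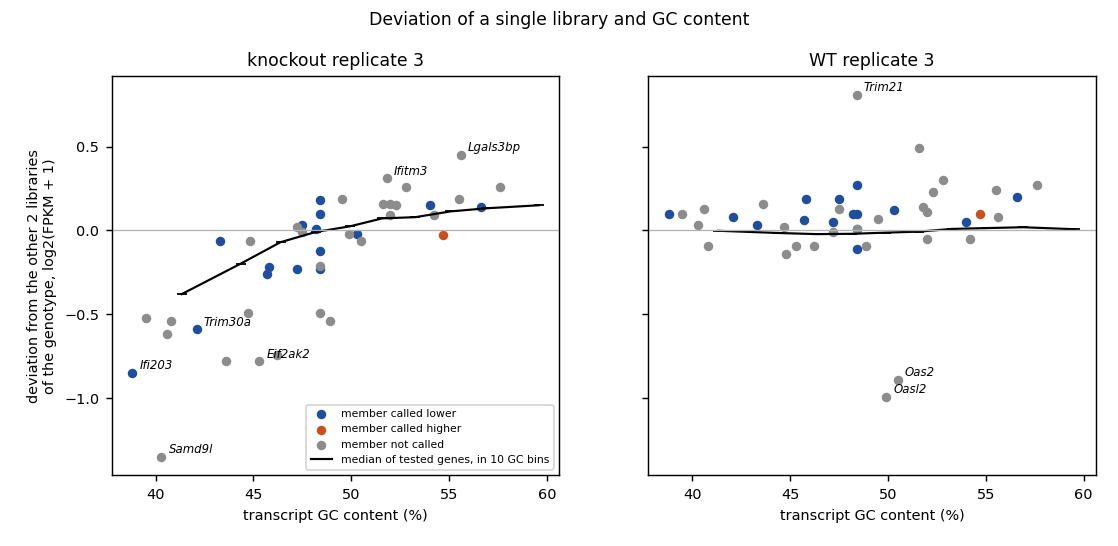
Deviation of 1 library from the other 2 of its genotype on log2(FPKM + 1), against transcript GC content, for knockout replicate 3 (left) and WT replicate 3 (right). Points are the 43 genes by call, and the black line joins the medians of tested genes in 10 bins of GC content. On the left genes and line rise from low to high GC content; on the right the line is flat, and Oas2 and Oasl2 lie at the bottom.

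Without knockout replicate 3, 16 genes of the set were called lower, 13 of them among the 15 above, and 1 was called higher. Mx2 and Zc3hav1 were lost, and Isg15, Lgals3bp and Oas1a were gained. Samd9l, Eif2ak2, Ifih1, Ifi44, Ifi204 and Slfn5 then had values above 0 that were not called, from 0.0089 to 0.35. With the GC trend of each library removed, 19 were called lower, including all 15 above, and 1 higher. Without WT replicate 1 only 9 were called lower. Ifit1, Ifit3, Ifit3b, Oasl1, Dhx58, Rsad2, Cmpk2, Trim30a and Dtx3l were called lower in each of the 18 alternatives that were run.

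The rest of the interferon pathway was read from lists of 139 further genes, of which 96 were tested. Of these, 47 fell (49%) and 7 rose (7.29%), beside the 9.2% and 10.4% of all tested genes, with a median log2 fold change of -0.34. The lists were chosen with earlier results of these data known, so the shares are a description and not an independent test. The interferons themselves were hardly detected. Of 20 ligand genes none reached the filter and 16 were listed at 0 in all 6 libraries; Ifnb1, interferon-β, was at 0.08 FPKM in WT replicate 3 and at 0 in the other 5. RNA was taken 24 h after LPS, and earlier times were not analysed here.

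Of 5 tested receptor chains, Ifnar2 and Il10rb fell. Ifnar2 was at 30.79, 31.33 and 28.36 FPKM in WT and at 21.13, 19.99 and 23.99 in the knockout (-0.46, limma adjusted p = 0.0113; not called without WT replicate 1 or knockout replicate 1). Ifnar1 was at 18.55, 16.03 and 16.21 in WT and at 15.00, 10.71 and 13.86 in the knockout, and did not pass the test (-0.35, 95% interval -0.66 to -0.04). All knockout values of both chains of the type I receptor were below all WT values. Il10rb, a chain shared by the type III interferon and interleukin-10 receptors, had a log2 fold change of -0.34 (limma adjusted p = 0.0141), a call lost without any 1 of 4 libraries.

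Of 12 tested kinases and factors, 4 fell by limma, among them Stat2, Irf1 and Irf7, and Irf5 rose. EdgeR and DESeq2 also called Irf8 higher, and DESeq2 called Jak2 higher. Both missed the threshold in limma (0.29 and 0.45, limma adjusted p = 0.0518 and 0.0895). Irf7, the factor that amplifies interferon production, was at 45.47, 47.08 and 53.19 FPKM in WT and at 22.76, 23.85 and 26.37 in the knockout (-0.97 ± 0.09, limma adjusted p = 0.000533). Stat2 was at 33.41, 29.24 and 34.88 FPKM in WT and at 20.29, 22.21 and 22.31 in the knockout (-0.57 ± 0.09, limma adjusted p = 0.00457). In both genes every knockout value was below every WT value. Irf9, the DNA-binding protein of the ISRE-binding complex, was at 15.21, 14.53 and 18.41 in WT and at 12.30, 14.85 and 15.52 in the knockout, with overlapping groups (-0.16, 95% interval -0.45 to 0.13). Irf1, a factor also induced by interferon-γ, fell by 0.75 on the log2 scale (limma adjusted p = 0.000761). Irf5, a factor of myeloid cells, was at 4.78, 4.34 and 3.72 FPKM in WT and at 6.36, 6.72 and 6.67 in the knockout (0.53, limma adjusted p = 0.00857).

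Of 8 tested feedback inhibitors, 2 rose and 0 were called lower by limma; at an unadjusted p under 0.05, 3 were higher and 1 lower. With edgeR 0 were called lower as well, and with DESeq2 1, Cish. Usp18, the ISG15 protease that also blocks IFNAR2 and is itself a target of interferon, was at 41.35, 37.79 and 43.13 FPKM in WT and at 38.76, 36.76 and 42.61 in the knockout (-0.05, 95% interval -0.25 to 0.15), so that the groups overlapped. The phosphatases Ptpn6 (SHP-1, of blood cells) and Ptpn1 rose by 0.98 and 0.24 (limma adjusted p = 0.00322 and 0.0413). Ptpn6 was at 4.77, 4.56 and 3.95 FPKM in WT and at 10.33, 7.80 and 11.18 in the knockout; the Ptpn1 call was lost in 12 of 18 alternatives. Of 12 tested genes that sense nucleic acids or LPS upstream of interferon, Ddx58 (RIG-I), Zbp1 and Unc93b1 fell, with log2 fold changes of -0.35, -0.78 and -0.25. Limma called 0 of the 12 higher, with 1 higher at an unadjusted p under 0.05, while edgeR and DESeq2, which tested more low genes, called Tlr7 and Ticam2 higher. Zbp1, a sensor of Z-form nucleic acids, was at 51.17, 46.81 and 49.96 FPKM in WT and at 26.56, 27.61 and 31.09 in the knockout. The Unc93b1 call was lost in 13 of 18 alternatives.

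The interferon-inducible GTPases, which attack the vacuoles of intracellular parasites and bacteria, fell in 10 of 13 tested, with a median log2 fold change of -0.89. Iigp1, with the largest decrease, was at 11.70, 13.33 and 14.08 FPKM in WT and at 4.81, 5.24 and 2.88 in the knockout (-1.43, limma adjusted p = 0.00236). It was followed by Ifi47 (-1.17), Tgtp1 (-1.09) and Gbp6 (-0.97). Of 46 other tested interferon-stimulated genes, 28 fell and 4 rose. The chemokine Cxcl9, mainly a target of interferon-γ, was at 52.01, 57.60 and 53.77 FPKM in WT and at 8.84, 6.75 and 7.27 in the knockout (-2.69). Trim30d, a neighbour and relative of Trim30a, fell by 1.67, and Ube2l6, the conjugating enzyme for ISG15, by 1.56 on the log2 scale. Ifi27l2a fell by 1.37. Sp110, Sp140, Cd274 and Ifitm1 rose, by 0.64, 0.49, 0.83 and 0.49.

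**Figure D4:**
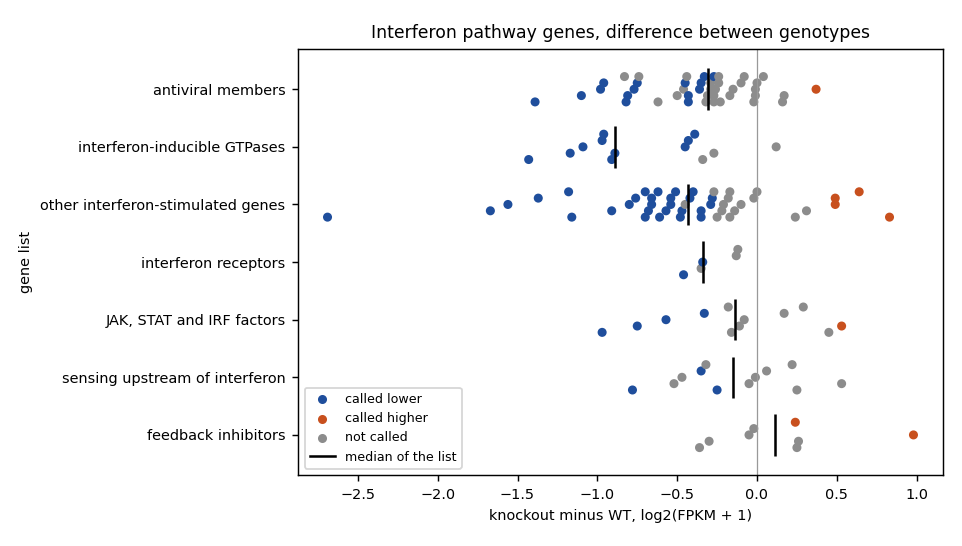
Log2 fold change, knockout minus WT, of each tested gene of the antiviral set and of 6 lists of other interferon pathway genes; blue, called lower; orange, called higher; grey, not called; black bar, median of the list. The medians run from -0.89 for the GTPases to 0.11 for the feedback inhibitors.

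Markers of other cell types moved between the same libraries. All 22 tested macrophage markers of 30 listed rose, among them Marco (2.11), Clec4d (1.76) and Adgre1 (1.59), with a summed level of 750 to 850 FPKM in WT and 1755 to 1999 in the knockout; 1 of the 30, Vsig4, was at 0 in every library. Marco was at 11.10, 9.99 and 9.36 FPKM in WT and at 49.82, 43.78 and 48.15 in the knockout. Of 18 tested stromal markers of 20 listed, 12 fell and 3 rose, with a summed level of 3731 to 4104 FPKM in WT and 2637 to 2858 in the knockout. Thy1 was at 140.33, 128.02 and 132.68 FPKM in WT and at 10.56, 11.91 and 12.93 in the knockout. The largest decreases were those of Thy1 (-3.40), Pdgfra (-2.98) and Dcn (-2.12), and Lepr and Lum did not reach the filter. The collagen gene Col1a1 also fell (-0.41, limma adjusted p = 0.0451). It was at 1655.95, 1822.35 and 1698.28 FPKM in WT and at 1214.16, 1352.77 and 1334.75 in the knockout. The 3 stromal markers that rose were Nt5e, Twist1 (0.69) and Cxcl12 (0.35). Nt5e was at 0.16, 0.26 and 0.13 FPKM in WT and at 2.18, 2.66 and 2.21 in the knockout. Of 8 markers of plasmacytoid dendritic cells, the cells best known for interferon-α, 3 were tested and fell (Klk1, Cox6a2 and Il3ra; summed level of all 8, 19.3 to 22.2 FPKM in WT and 11.8 to 13.9 in the knockout), while the defining Siglech was at 0 throughout. Of 10 granulocyte markers 3 were tested, of which S100a8 and Csf3r rose and Camp fell. None of 12 lymphoid, 7 endothelial and 7 erythroid markers reached the filter, and 8 of the 12 lymphoid markers were at 0 throughout. The part of the macrophage and stromal shifts in the decrease of the antiviral genes, and in the increase of Oas3, Irf5, Ptpn6, Sp110 and Sp140, was not tested.

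Of the 7 genes of the set on chromosome 11, which carries Nlrp3, Dhx58 fell and 6 did not pass the test. The log2 fold changes of these 6 were -0.83 (Trim25), -0.62 (Lgals3bp), -0.26 (Ifi35), -0.23 (Xaf1), -0.17 (Slfn5) and 0.16 (Slfn2). Trim25 and Lgals3bp missed the threshold at limma adjusted p = 0.0816 and 0.092. Of all tested genes, on any chromosome, 9.2% fell. The nearest of the 7 genes, Xaf1, starts 12.7 Mb from Nlrp3 and Dhx58 41.1 Mb from it. Some genes of the other pathway lists that fell lie closer to Nlrp3 than Xaf1. Among them are Igtp (chr11:58199556-58207591, -0.91), Irgm2 (chr11:58199618-58222782, -0.96) and Irf1 (chr11:53770014-53777323, -0.75). So do Ifi47 (chr11:49076587-49096974, -1.17), Tgtp1 (chr11:48985327-48994172, -1.09) and Irgm1 (chr11:48861968-48871683, -0.43). Tgtp2 (chr11:49057194-49064206, 0.12), between Tgtp1 and Ifi47, was not called. A share for all genes of chromosome 11 is not given here, and an effect of linkage to Nlrp3 was not tested.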

How the data were processed

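Per the labels, poly(A) RNA of 3 WT and 3 Nlrp3 knockout cultures under LPS was made into dUTP libraries and sequenced in pairs of 150 bases. Per the submitters' processing notes, cutadapt 1.9, HISAT2 2.0.4 and StringTie 1.3.4d were used with GRCm38; the sources used here do not give the counting step, annotation release or use of strand. The authors deposited FPKM to 2 decimals and estimated counts per gene; the estimated counts are whole numbers as deposited and were used only in alternatives.

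The test was limma 3.58.1 in R 4.3.3 on log2(FPKM + 1), for genes that reached an FPKM of 1 in 3 or more libraries, with group as the single term, an intensity trend, two-sided p-values, Benjamini-Hochberg adjustment over 12136 genes and a threshold of 0.05. Alternatives were a pseudocount of 0.1, other filters, no trend, edgeR 4.0.16, DESeq2 1.42.0, rescaled FPKM, the day in the title as a replicate block, and each library left out; removal of the GC trend (lowess, span 0.3) and edgeR without knockout replicate 3 were chosen after seeing the data. The fit was tested on simulated data.

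Transcript GC content and shared 100-base windows came from GENCODE M21, and promoters from RefSeq, GRCm38.p6. Gene coordinates are those of the table. Values in every library are given for the 12 largest decreases, all increases, the 5 most abundant genes, Nlrp3, a few pathway genes and the strongest called gene of each pathway list and of the macrophage and stromal markers, with fold changes for up to 3 more; other genes given so were picked after their values were seen. The values of 1 gene are not reported here. The genes of the set and all lists were chosen with earlier results of these data known.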

Additional observations from a re-analysis of the deposited data

How the results depend on the processing

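The count of genes of the set called lower was 15 and lay between 12 and 20 in the alternatives that kept all 6 libraries, and between 9 and 16 with 1 library left out in limma; the count called higher was 1, and 0 to 1 with 1 library left out. The median log2 fold change of the set stayed between -0.37 and -0.31. Whether the days in the titles pair the libraries is not settled: deviations of libraries with the same number correlated at 0.02, 0.17 and 0.10, the other pairs at -0.17 to 0.08, and WT replicate 1 correlated more with knockout replicate 3 (0.08) than with its own number. With that number as a replicate block, 15 genes of the set were called lower, 11 of them shared with the fit without it, and 0 higher. Among the named pathway genes the block ended the calls of Ptpn1 (adjusted p = 0.0832) and Unc93b1 (0.0689), and no others. Over all genes, DESeq2 called 1677 lower, and edgeR without knockout replicate 3 called 1715 lower and 1923 higher; with 1 library left out in limma, 583 to 1281 were lower and 705 to 1464 higher. Of the other pathway genes, 32 to 50 were lower in any alternative, and 11 were higher with DESeq2 and with edgeR without knockout replicate 3, against 4 to 8 with 1 library left out. The causes were not tested. The changes of sign were all in genes of the set that the test did not call. With edgeR (TMM, then RLE) and DESeq2, Eif2ak2 was at 0.0087, 0.017 and 0.016, Samd9l at 0.0055, 0.015 and 0.014 and Rtp4 at -0.016, -0.0099 and -0.01. With the GC trend removed, with or without the block, Oas1g was at 0.00054, Rtp4 at -0.02 and Sp100 at -0.012. With edgeR without knockout replicate 3, Eif2ak2 was at 0.23, Samd9l at 0.34, Ifih1 at 0.14, Ifi204 at 0.064, Ifi44 at 0.085 and Rtp4 at -0.04. With 1 library left out in limma, the ranges were -0.22 to 0.24 for Eif2ak2, -0.034 to 0.041 for Rtp4, -0.4 to 0.35 for Samd9l, -0.13 to 0.15 for Ifih1, -0.096 to 0.066 for Oas1g, -0.0045 to 0.076 for Sp100, -0.19 to 0.095 for Ifi204, -0.34 to 0.11 for Ifi44 and -0.3 to 0.0089 for Slfn5. Nlrp3 was not tested under the filter in all 6 libraries or without a WT library, since it is at 0 in the knockout; it was called lower in each of the other alternatives. The number of libraries, 3 per group, limits the precision of the uncalled genes.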

Other observations

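Genes in which 1 library stood apart were counted by a rule chosen after the values were seen: the other 2 libraries of the group within 0.25 of each other on log2(FPKM + 1), and the library at least 0.75 from both. Of all tested genes 525 (4.33%) met it in some library, and 5 of the set did: Trim25 in WT replicate 2, Oas2, Oasl2 and Trim21 in WT replicate 3, and Ifi203 in knockout replicate 3. In Oas2, Oasl2 and Trim25 the WT library apart was the lowest of its group, and in Trim21 it was the highest of all 6, at 8.02 FPKM.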
